A study of Mus musculus with 35 samples.

Results

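The Slc25 family holds the mitochondrial carriers, the membrane proteins that pass nucleotides, phosphate, amino acids, fatty acid derivatives and cofactors across the mitochondrial inner membrane. Its members were taken here as every gene whose symbol is Slc25a followed by a number, on rows of the expression table that are annotated to exactly 1 gene symbol. This gave 50 rows and 46 genes of 19938 genes tested. Slc25a5 had 3 rows and Slc25a36 and Slc25a40 had 2 each, and for these the brightest row, by its mean over the 35 arrays, was used. The rule uses no change between groups, although the family was picked with earlier results of these data known.

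Female mice aged 2 months gave RNA of the quadriceps, hybridised to 35 arrays, 1 for each mouse. Control mice were compared with Mstn-null mice, which lack myostatin, a secreted protein that limits muscle growth, and with mice given 1 dose or 4 doses of ActRIIB-Fc. ActRIIB-Fc is a fusion of the ligand-binding part of a type II activin receptor with an antibody Fc part, and it traps myostatin along with other TGF-beta family ligands. Experiment 1 had 3 mice in each of the 4 classes, and experiment 2, a follow-up, had 8 Mstn-null mice and 5 of each other class. The strain, the amount given per dose and the schedule are not given in the labels used here, so the mice given ActRIIB-Fc are described only by their number of doses. Loss of the gene is lifelong, whereas the doses were given to mice of otherwise unstated genotype.

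Most carriers work as exchangers: a substrate on 1 side of the inner membrane is swapped for another on the opposite side. In muscle the ADP/ATP carrier and the phosphate carrier supply ATP synthase and export its product. Aspartate/glutamate and oxoglutarate carriers form the membrane steps of the malate-aspartate shuttle, which brings the reducing power of cytosolic NADH to the respiratory chain. The carnitine/acylcarnitine carrier brings long-chain fatty acids in for oxidation, and other members import the cofactors on which matrix enzymes depend.

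All values below are log2 intensities, and levels are compared only for the same gene within an experiment, because array medians lay at 4.39 to 4.52 in experiment 1 and at 6.06 to 6.27 in experiment 2. A gene is called higher or lower where limma's adjusted p, over all 19938 genes with both experiments in the fit, was under 0.05. Mstn itself lay at 6.77 to 7.68 in control mice and 5.78 to 6.69 in Mstn-null mice of experiment 1, and at 9.84 to 10.21 and 6.29 to 7.84 in experiment 2, so the groups did not overlap. The sources used here do not say whether its probes lie in the deleted part of the gene. The mean of 8 skeletal muscle markers lay at 11.25 to 11.51 over the arrays of experiment 1 and at 12.97 to 13.58 in experiment 2, far above the array medians in every class, as the tissue label has it. Markers of slow muscle fibres, a fibre type rich in mitochondria, moved with the groups: all 8 on the list were lower in Mstn-null mice (median log2 change -2.22) and after 4 doses (median -1.61), and 0 were called after 1 dose (median -0.98). In experiment 2 their mean level was 10.03 to 10.71 in control mice, 6.89 to 9.56 in Mstn-null mice, 7.54 to 10.58 after 1 dose and 7.52 to 9.58 after 4 doses. In whole muscle, fewer fibres of a type and less RNA per fibre cannot be told apart, and the part of fibre type in the carrier results was not tested. Macrophage markers were higher for 4 of 6 genes in Mstn-null mice and for 4 of 6 after 4 doses, and endothelial markers were lower for 2 of 5 in Mstn-null mice. The part of these cells was not tested either.

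In Mstn-null muscle more carriers were called lower than higher. Of the 46 genes, 20 were lower, 3 higher and 23 not called, against 16.4% of all genes called lower and 25.4% called higher. The members' shares were 43.5% and 6.52%. Their median log2 change was -0.09, and that of all genes was 0.09. After 1 dose of ActRIIB-Fc 0 of the 46 were called, where 1.11% of all genes were, and the limma p before adjustment was under 0.05 for 7 members. After 4 doses 2 carriers were called lower (background 1.23%) and 1 higher (1.91%), with 9 members under 0.05 before adjustment. The plot of changes by role shows the 3 comparisons for every member.

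**Figure D1:**
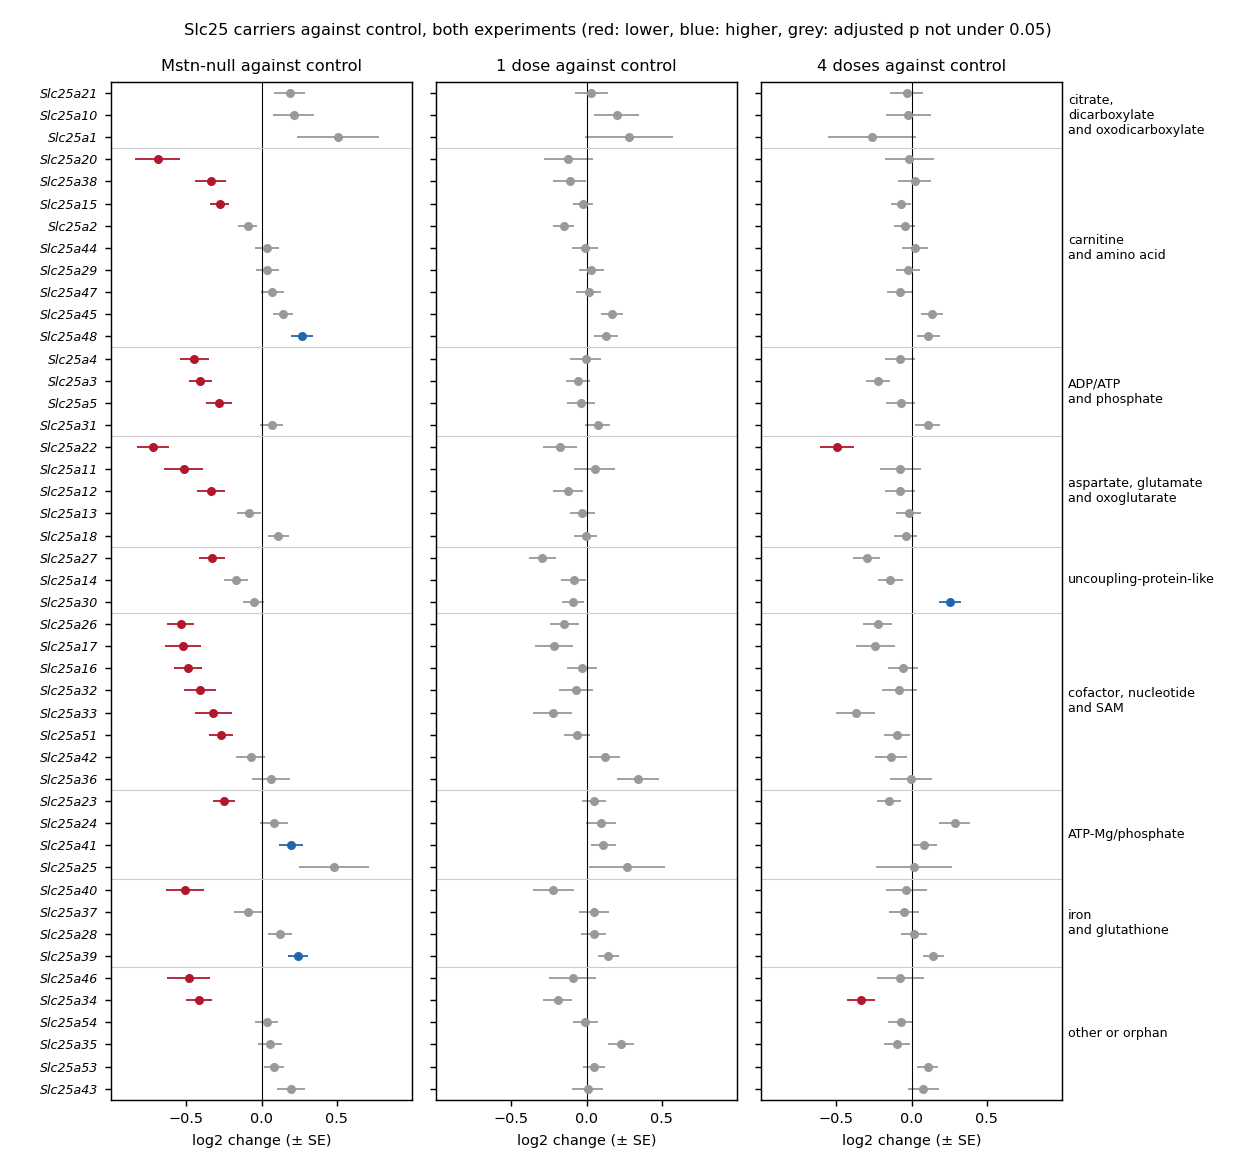
Log2 change ± SE of each of the 46 Slc25 carriers against control, grouped by role, for Mstn-null mice, 1 dose and 4 doses of ActRIIB-Fc, from the fit of both experiments; red points were called lower and blue points higher. The 20 red points of the Mstn-null panel spread over 8 of the 9 role groups, the 1 dose panel has 0 coloured points, and the 4 doses panel has Slc25a22, Slc25a34 and Slc25a30.

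The spread of values within an array differed between Mstn-null and control mice and touches these counts. The interquartile range of an array was 2.74 to 2.84 in the Mstn-null mice of experiment 1 against 2.87 to 3.03 in controls, and 2.52 to 2.76 against 2.80 to 2.87 in experiment 2, with no overlap in either. With that range as a covariate, 2 carriers were called in Mstn-null mice, where 1.48% of all genes were: Slc25a22, lower by a log2 change of -0.60 ± 0.14 (SE; limma adjusted p = 0.0224), and Slc25a39, higher by 0.34 ± 0.09 (adjusted p = 0.032). Slc25a11 went from -0.52 to 0.02 (adjusted p = 0.951). Range and genotype moved together in these arrays, and the cause of the change was not tested. Centring each array on its median moved the median of all genes from 0.09 to -0.02, and then 22 carriers were called lower (background 22.1%) and 0 higher (background 7.4%). The 3 carriers called higher without centring kept a positive change but missed the threshold, at 0.14 for Slc25a39, 0.16 for Slc25a48 and 0.09 for Slc25a41.

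**Figure D2:**
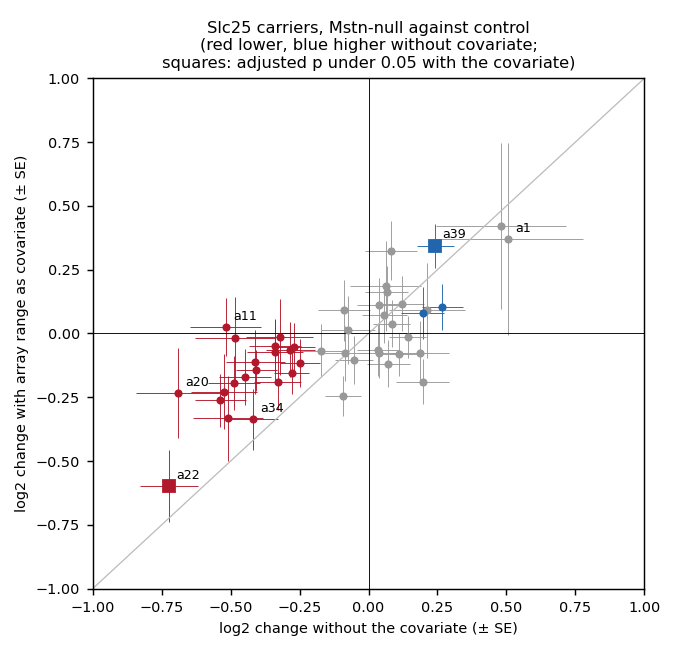
Log2 change ± SE in Mstn-null against control mice for the 46 carriers, without (x axis) and with (y axis) the interquartile range of the array as a covariate; squares mark the 2 genes called with it, and the grey diagonal marks equal values. Slc25a22 stays near the diagonal (-0.72 and -0.60), Slc25a39 lies above it (0.24 and 0.34), and Slc25a11 moves from -0.52 to 0.02.

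The promoters of 4 carriers are shown: Slc25a22 and Slc25a20, which had the largest falls in Mstn-null muscle, and Slc25a34 and Slc25a3, the called carriers whose window held a motif that was searched. Each is the 250 bases before a RefSeq transcript start in GRCm38.p6, on the gene's strand, 5′ to 3′. Slc25a22 lies at chr7:141437875-141438124 (minus strand, the most upstream of its listed starts), Slc25a20 at chr9:108661886-108662135 (plus strand), Slc25a34 at chr4:141623835-141624084 (minus strand) and Slc25a3 at chr10:91123968-91124217 (minus strand). Capitals mark the motif.
Slc25a22: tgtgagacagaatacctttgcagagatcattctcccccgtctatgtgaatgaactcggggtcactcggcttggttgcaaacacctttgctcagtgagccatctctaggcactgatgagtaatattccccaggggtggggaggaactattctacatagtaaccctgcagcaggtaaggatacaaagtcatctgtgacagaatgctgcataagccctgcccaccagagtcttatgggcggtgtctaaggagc
Slc25a20: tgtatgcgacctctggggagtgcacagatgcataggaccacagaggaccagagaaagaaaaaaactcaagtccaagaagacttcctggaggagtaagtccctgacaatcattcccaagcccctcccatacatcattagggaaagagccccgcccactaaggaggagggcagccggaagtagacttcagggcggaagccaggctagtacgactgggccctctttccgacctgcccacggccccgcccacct
Slc25a34: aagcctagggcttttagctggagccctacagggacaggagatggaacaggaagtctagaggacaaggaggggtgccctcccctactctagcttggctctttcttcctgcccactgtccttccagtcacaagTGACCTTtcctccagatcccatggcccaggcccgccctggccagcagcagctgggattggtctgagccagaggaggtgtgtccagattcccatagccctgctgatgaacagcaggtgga
Slc25a3: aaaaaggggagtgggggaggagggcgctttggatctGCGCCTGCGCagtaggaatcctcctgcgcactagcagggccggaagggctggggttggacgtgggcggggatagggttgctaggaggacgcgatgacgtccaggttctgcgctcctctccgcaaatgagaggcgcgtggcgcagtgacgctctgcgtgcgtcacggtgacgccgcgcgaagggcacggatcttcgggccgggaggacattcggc

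Windows were found for 36 of the 46 carriers and searched on both strands for AAGGTCA, the core that oestrogen-related receptors bind, for the NRF1 motif, which is GCGCA and GCGC with any base between them, and for GTAAACA, bound by FoxO factors. AAGGTCA occurred in Slc25a34 only, as TGACCTT on the gene's strand from 119 to 113 bases before the start; 4.7% of all genes with a window hold it. The NRF1 letters occurred in Slc25a3, 214 to 205 bases before the start, and in the ADP/ATP carrier gene Slc25a31, 45 to 36 bases before it, against 4.23% of all genes. GTAAACA occurred in 0 of the 36, against 3.54%. These are matches of letters and not sites of binding.

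Among the carriers of ADP, ATP and phosphate, 3 of 4 were lower in Mstn-null muscle. Slc25a4, the main ADP/ATP carrier of heart and skeletal muscle, measured 11.41, 11.44 and 11.49 in the control mice of experiment 1 and 11.13, 11.18 and 11.28 in the Mstn-null mice. In experiment 2 it measured 13.39, 13.41, 13.38, 13.48 and 13.39 in controls, with a lowest, median and highest of 12.31, 12.91 and 13.36 in Mstn-null mice. The Mstn-null values lay below every control value in both experiments, and in experiment 2 they spread far more widely (SD 0.36, n = 8, against 0.04, n = 5). The log2 change was -0.45 ± 0.09 (SE), a 1.36-fold lower level (limma adjusted p = 0.000534). Slc25a3, the phosphate carrier, showed the same separation. It measured 8.99, 8.90 and 9.15 in control and 8.35, 8.73 and 8.73 in Mstn-null mice of experiment 1. Its experiment 2 values were 10.99, 10.98, 11.00, 11.03 and 11.04 in controls and 10.21, 10.61 and 10.92 as lowest, median and highest in Mstn-null mice. Its change, -0.41 ± 0.08 (adjusted p = 0.000128), was close to equal in the experiments (-0.41 and -0.40). Slc25a5, the ADP/ATP carrier of many proliferating tissues, fell by 0.28 ± 0.09 (adjusted p = 0.0109), and all 3 of its rows were called lower (-0.19, -0.35 and -0.28). Slc25a31, a carrier mainly of the testis, changed by 0.07 and was not called.

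Slc25a4 was not called after either dose. In experiment 1 it measured 11.53, 11.41 and 11.48 after 1 dose, overlapping control, and 11.40, 11.20 and 11.11 after 4 doses, all below the lowest control. After 1 dose the 5 mice of experiment 2 measured 13.30, 13.50, 13.48, 13.39 and 13.24, and after 4 doses 13.43, 13.37, 13.32, 13.42 and 13.52, both ranges overlapping the controls of that experiment. The changes against control were -0.01 ± 0.10 and -0.08 ± 0.10. The fit uses a single spread per gene for all classes, so these SEs also carry the spread of the Mstn-null mice. In experiment 2 the SD of Slc25a4 was 0.36 in Mstn-null mice, 0.11 after 1 dose and 0.07 after 4 doses. For Slc25a3 the 4 doses group lay below the control group without overlap in both experiments (8.84, 8.57 and 8.59, then 10.90, 10.84, 10.73, 10.90 and 10.92), but its change of -0.22 ± 0.08 was not called (limma adjusted p = 0.142). Its SD in experiment 2 was 0.26 in Mstn-null mice, 0.02 in control mice and 0.08 after 4 doses.

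Slc25a22, a mitochondrial glutamate carrier, had the largest fall of the family in Mstn-null muscle and was also lower after 4 doses. Control mice of experiment 1 measured 4.95, 4.98 and 5.25, Mstn-null mice 4.67, 4.63 and 4.82, mice given 1 dose 5.07, 5.41 and 5.34, and mice given 4 doses 4.80, 4.97 and 4.71. In experiment 2 controls measured 6.92, 6.80, 7.50, 7.50 and 7.56, and Mstn-null mice 6.16, 6.29 and 6.65 as lowest, median and highest. Mstn-null values lay below all control values in both experiments. The log2 change was -0.72 ± 0.11 (SE; limma adjusted p = 7.12e-06), with -0.36 in experiment 1 and -0.92 in experiment 2. After 4 doses the values in experiment 2 were 6.28, 6.53, 6.70, 6.65 and 6.89, so that 4 of 5 mice lay below the lowest control. The change was -0.49 ± 0.11 (adjusted p = 0.00748), -0.24 in experiment 1 and -0.65 in experiment 2, and it was called with each array left out in turn. After 1 dose the 5 mice measured 6.70, 6.70, 7.06, 6.82 and 6.95, overlapping the controls, and the gene was not called.

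Of the carriers of the malate-aspartate shuttle, Slc25a11 and Slc25a12 were lower in Mstn-null mice. Slc25a11, the oxoglutarate/malate carrier, measured 9.25, 9.01 and 9.27 in control and 8.47, 9.01 and 9.09 in Mstn-null mice of experiment 1, with 10.76, 10.81, 10.71, 10.76 and 10.71 in the controls of experiment 2. The 8 Mstn-null mice of experiment 2 ranged from 9.31 through a median of 10.11 to 10.76, so most but not all lay below the controls. Its change was -0.52 ± 0.13 (SE; limma adjusted p = 0.00209). Slc25a12, the calcium-regulated aspartate/glutamate carrier of muscle and brain, changed by -0.34 ± 0.09 (adjusted p = 0.00481), about equally in both experiments (-0.35 and -0.34). Slc25a13, its counterpart in liver, and Slc25a18, the second glutamate carrier, were not called. After ActRIIB-Fc Slc25a11 was not called, with 10.78, 10.73, 10.98, 10.88 and 10.64 after 1 dose and 10.82, 10.76, 10.52, 10.70 and 10.84 after 4 doses in experiment 2. The cytosolic and mitochondrial enzymes of the same shuttle were all lower in Mstn-null mice, 4 of 4, with log2 changes of -1.06 for Mdh1, -0.63 for Got1, -0.43 for Got2 and -0.25 for Mdh2. After 4 doses Got1 was lower by -0.44 (adjusted p = 0.023), and 0 of 4 were called after 1 dose. Both measured genes of the glycerol phosphate shuttle, the alternative route for the same electrons, were called in 0 of the 3 comparisons with control.

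**Figure D3:**
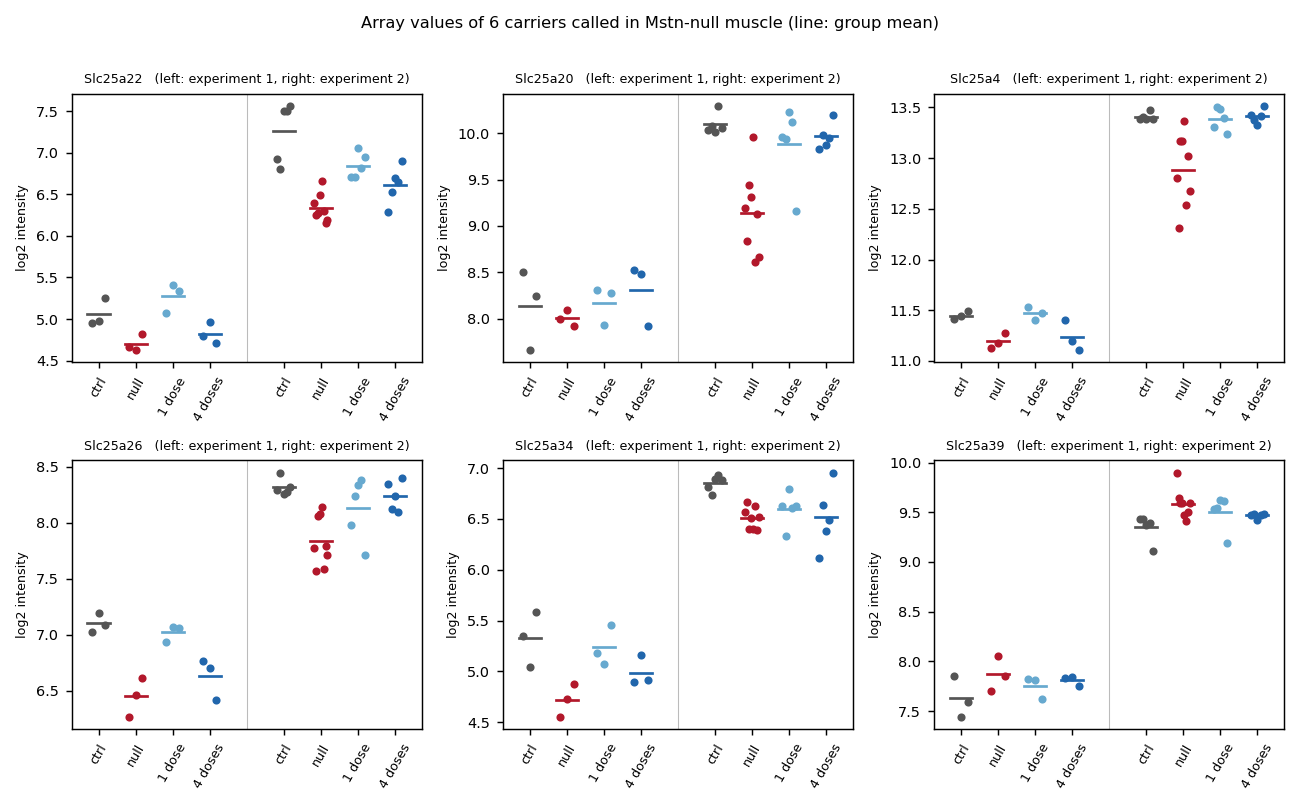
Log2 intensity of Slc25a22, Slc25a20, Slc25a4, Slc25a26, Slc25a34 and Slc25a39 in every mouse, 1 point for each array and a line at each group mean, with experiment 1 at the left and experiment 2 at the right of each panel. Mstn-null points of Slc25a22, Slc25a4, Slc25a26 and Slc25a34 lie below all control points in both experiments; those of Slc25a20 do so in experiment 2 only, from 8.61 to 9.96, and those of Slc25a39 tend to lie above.

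Slc25a20, the carnitine/acylcarnitine carrier, fell by 0.69 ± 0.15 on the log2 scale in Mstn-null mice (SE; limma adjusted p = 0.000778). In experiment 1 the control values of 8.50, 7.66 and 8.25 enclosed the Mstn-null values of 7.99, 8.10 and 7.92, and the change was -0.13. Controls of experiment 2 measured 10.04, 10.08, 10.02, 10.30 and 10.05, and the 8 Mstn-null mice 8.61, 9.16 and 9.96 as lowest, median and highest, a change of -0.95 with no overlap. The difference between the experiments, -0.82, was not called (limma adjusted p = 0.118). In experiment 2 it measured 9.96, 9.94, 10.23, 10.12 and 9.16 after 1 dose and 9.84, 9.99, 9.87, 9.95 and 10.19 after 4 doses, with 1 low mouse in the first group. Neither dose group was called. Of 5 measured genes of the carnitine shuttle around this carrier, 2 were lower in Mstn-null mice, Cpt2 (-0.61), the acyltransferase of the inner membrane, and Crat (-0.31), the acetyltransferase of the matrix, and 1 was higher, Cpt1c (0.26). After either dose 0 of 5 were called.

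Among the amino acid carriers, Slc25a15, the ornithine carrier of the urea cycle, was lower in Mstn-null mice by -0.28 ± 0.06 (SE; limma adjusted p = 0.00114). Slc25a38, a glycine carrier needed for haem synthesis, was lower by -0.34 ± 0.10 (adjusted p = 0.00914), with 0.01 in experiment 1 and -0.50 in experiment 2. Slc25a48, a member linked to choline, was higher by 0.27 ± 0.07 (adjusted p = 0.00441), with similar values in both experiments (0.26 and 0.28). Its means in control and Mstn-null mice were 4.12 and 4.38 in experiment 1 and 5.54 and 5.82 in experiment 2, below the array medians. The other 5, Slc25a2, Slc25a29, Slc25a44, Slc25a45 and Slc25a47, were not called, and 0 of the 9 genes of this group were called after either dose.

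The cofactor, nucleotide and S-adenosylmethionine carriers had 6 of 8 members lower in Mstn-null muscle, the same share as the 3 of 4 ADP/ATP and phosphate carriers, with a median change of -0.37. Slc25a26 imports S-adenosylmethionine, the methyl donor. It measured 7.03, 7.20 and 7.09 in control and 6.27, 6.46 and 6.62 in Mstn-null mice of experiment 1. In experiment 2 controls measured 8.29, 8.45, 8.25, 8.27 and 8.32, and Mstn-null mice 7.57, 7.78 and 8.14 as lowest, median and highest. The groups did not overlap in either experiment, and the change was -0.54 ± 0.09 (SE; limma adjusted p = 5.09e-05). After 4 doses the 3 mice of experiment 1 were also low (6.77, 6.70 and 6.42), whereas the 5 of experiment 2 (8.35, 8.12, 8.24, 8.10 and 8.40) overlapped the controls, and the gene was not called.

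Slc25a17, a carrier of the peroxisomal membrane, measured 5.92, 5.32 and 5.83 in control and 5.42, 5.44 and 5.38 in Mstn-null mice of experiment 1, with overlap. Controls of experiment 2 measured 7.74, 7.62, 7.76, 7.90 and 7.83, against 6.86, 7.13 and 7.56 as lowest, median and highest in Mstn-null mice, with none. Its change was -0.52 ± 0.12 (SE; limma adjusted p = 0.00108). Slc25a16, a member linked to coenzyme A, separated the groups in experiment 1 instead, at 6.65, 7.01 and 6.65 in control against 6.46, 6.17 and 6.38 in Mstn-null mice. In experiment 2 its controls measured 8.08, 8.18, 8.01, 8.24 and 7.95 and its Mstn-null mice 7.18, 7.64 and 7.99, with a slight overlap, and its change was -0.49 ± 0.09 (adjusted p = 0.0002). The smaller falls were those of Slc25a32, the folate and FAD carrier (-0.41 ± 0.11, adjusted p = 0.00309), Slc25a33, a pyrimidine nucleotide carrier (-0.32 ± 0.12, adjusted p = 0.0337), and Slc25a51, the NAD+ carrier (-0.27 ± 0.08, adjusted p = 0.00743). Slc25a33 lost its call without any 1 of 7 arrays. Slc25a36, the second pyrimidine nucleotide carrier, and Slc25a42, a coenzyme A carrier, were not called, and the 2 rows of Slc25a36 differed in sign (0.06 and -0.17).

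Carriers of glutathione moved in opposite directions in Mstn-null muscle. Slc25a39 rose by 0.24 ± 0.07 (SE; limma adjusted p = 0.00448), equally in both experiments (0.24 each). It measured 7.85, 7.44 and 7.59 in control and 7.70, 8.06 and 7.86 in Mstn-null mice of experiment 1, and 9.43, 9.43, 9.37, 9.39 and 9.11 in control against 9.41, 9.59 and 9.90 (lowest, median, highest) in Mstn-null mice of experiment 2. The ranges overlapped in both. Slc25a40, its close relative, fell by 0.51 ± 0.13 (adjusted p = 0.00221). It measured 4.30, 4.30 and 4.31 in control and 4.29, 4.08 and 4.15 in Mstn-null mice of experiment 1, where these levels lay below the median of the arrays, and in experiment 2 7.08, 7.06, 7.09, 7.36 and 7.56 against 5.94, 6.50 and 7.16. Its other row was lower too (-0.27, called). The mitoferrins Slc25a28 and Slc25a37, which import iron, were not called.

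In the other role groups the calls were few. Of the ATP-Mg/phosphate carriers, which adjust the nucleotide pool of the matrix, Slc25a23 was lower in Mstn-null mice and Slc25a41 higher. Slc25a23 measured 6.14, 6.01 and 6.05 in control and 5.85, 5.72 and 5.71 in Mstn-null mice of experiment 1, without overlap. The controls of experiment 2 measured 7.30, 7.42, 7.23, 7.33 and 7.13, inside the Mstn-null range of 6.63 to 7.45 (median 7.07), and the change was -0.25 ± 0.07 (SE; limma adjusted p = 0.00818). Slc25a41 changed by 0.20 ± 0.08 (adjusted p = 0.0412), -0.05 in experiment 1 and 0.33 in experiment 2, and lost its call without any 1 of 12 arrays. Its means in control and Mstn-null mice were 4.34 and 4.29 in experiment 1 and 5.65 and 5.98 in experiment 2, below the array medians. Of the uncoupling-protein-like carriers, Slc25a27 was lower in Mstn-null mice by -0.33 ± 0.08 (adjusted p = 0.00291). Its values overlapped in experiment 1, 5.51, 5.66 and 5.67 in control and 5.65, 5.71 and 5.38 in Mstn-null mice. They did not in experiment 2, 7.80, 7.65, 7.76, 7.88 and 7.79 against 7.02, 7.35 and 7.45. Of the citrate, dicarboxylate and oxodicarboxylate carriers, 0 of 3 were called against control in any of the 3 classes.

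Slc25a46, a carrier homologue of the outer membrane, and Slc25a34, whose substrate is not settled, were the called members of the remaining 6. Slc25a46 measured 7.21, 6.52 and 7.74 in control and 7.20, 7.12 and 6.98 in Mstn-null mice of experiment 1. In experiment 2 controls measured 9.64, 9.53, 9.63, 9.79 and 9.56 and Mstn-null mice 8.54, 8.91 and 9.58, nearly separated, and the change was -0.49 ± 0.15 (SE; limma adjusted p = 0.00859). Slc25a34, whose promoter is the one printed with TGACCTT, was lower in Mstn-null mice and after 4 doses. Control mice of experiment 1 measured 5.35, 5.04 and 5.59, Mstn-null mice 4.55, 4.73 and 4.88, mice given 1 dose 5.18, 5.07 and 5.46, and mice given 4 doses 4.90, 5.16 and 4.91. In experiment 2 these were 6.82, 6.73, 6.90, 6.94 and 6.88 in controls, 6.39, 6.51 and 6.66 as lowest, median and highest in Mstn-null mice, 6.62, 6.34, 6.79, 6.61 and 6.62 after 1 dose, and 6.12, 6.63, 6.38, 6.49 and 6.96 after 4 doses. Mstn-null values lay below all controls in both experiments, with a change of -0.42 ± 0.09 (adjusted p = 0.000533). After 4 doses 4 of 5 mice of experiment 2 lay below the controls and 1 lay above them. The change was -0.34 ± 0.09 (adjusted p = 0.0384), -0.34 in each experiment, and it lost its call without any 1 of 11 arrays and with the array range as a covariate (adjusted p = 0.0681).

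Slc25a30, an uncoupling-protein-like carrier first described in kidney, was the carrier called higher after 4 doses, and it was also higher after 4 doses than after 1. In experiment 1 it measured 5.25, 5.75 and 5.33 in control mice, 4.97, 5.34 and 5.18 after 1 dose and 5.69, 5.70 and 5.43 after 4 doses. The controls of experiment 2 measured 6.48, 6.65, 6.52, 6.52 and 6.66, against 6.65, 6.57, 6.50, 6.69 and 6.52 after 1 dose and 6.77, 6.75, 6.93, 7.11 and 6.82 after 4 doses. The 4 doses mice lay above all mice given 1 dose in both experiments and above the controls in experiment 2. The change against control was 0.26 ± 0.07 (SE; limma adjusted p = 0.0482), and it lost its call without any 1 of 25 arrays (adjusted p up to 0.124). These include Mstn-null and 1 dose arrays, which are in neither compared group but share the spread of the fit. The call was also lost with the array range as a covariate (adjusted p = 0.0747), with quantile normalization (0.0721), with median centring (0.122) and in experiment 1 alone (0.755). Against 1 dose the change was 0.35 ± 0.07 (adjusted p = 0.0256), where 0.276% of all genes were called higher and 0.0451% lower, and it lost its call without any 1 of 4 arrays: 4 doses replicate 2, 1 dose replicate 1 or 1 dose replicate 3 of experiment 1, or 4 doses replicate 4 of experiment 2. In Mstn-null mice its change was -0.05 and was not called.

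With that covariate 2 carriers were called after 4 doses (background 3.56%), Slc25a22 (-0.45, adjusted p = 0.0163) and Slc25a24 (0.36, adjusted p = 0.0194). Low slow fibre markers set 3 dosed mice of experiment 2 apart, 1 dose replicate 4 and 4 doses replicates 1 and 3. Without these arrays, a choice made after seeing the data, Slc25a22 was the carrier called after 4 doses (background 2%).

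**Figure D4:**
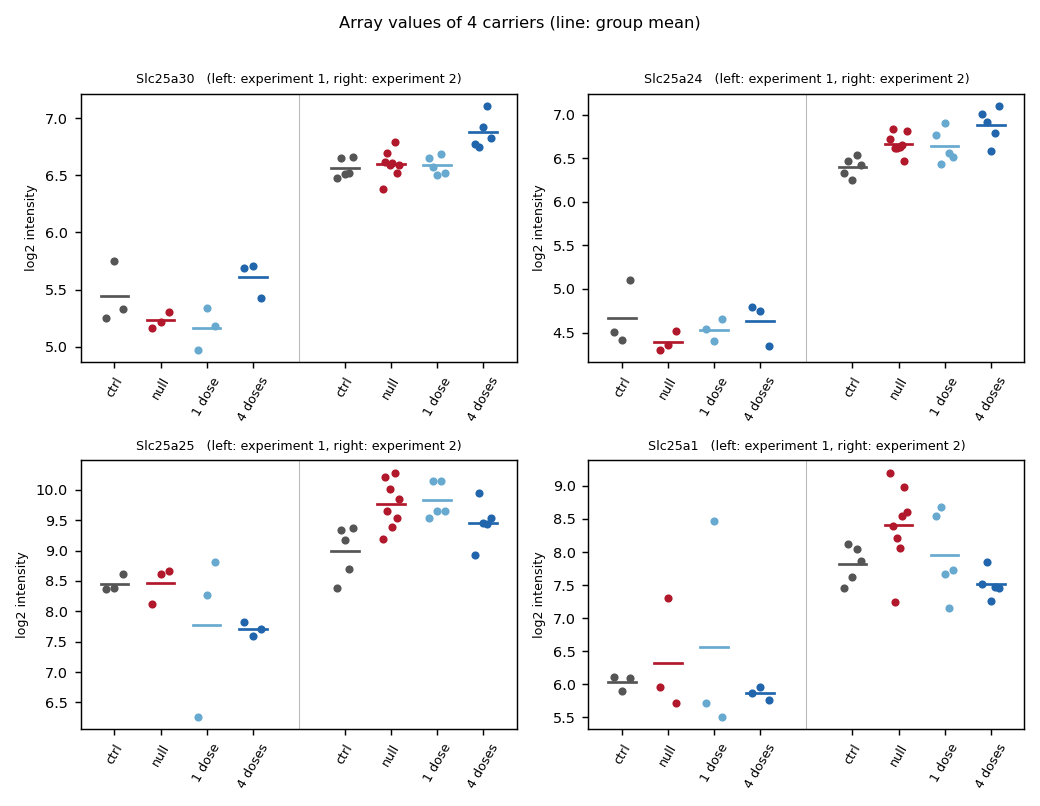
Log2 intensity of Slc25a30, Slc25a24, Slc25a25 and Slc25a1 in every mouse, 1 point for each array and a line at each group mean, with experiment 1 at the left and experiment 2 at the right of each panel. The 4 doses points of Slc25a30 lie above the 1 dose points in both experiments, the Slc25a25 means of 1 dose and 4 doses lie below control in experiment 1, through 1 mouse at 6.26 after 1 dose, and above it in experiment 2, and Slc25a1 has 1 mouse at 8.47 among 1 dose values of 5.71 and 5.51.

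Each dose group was also set against the Mstn-null group. These comparisons share the Mstn-null arrays with each other and with the comparison against control, so their values stand side by side and do not add support to each other. After 4 doses 12 carriers were called higher than in Mstn-null mice (background 11.4%) and 1 lower (8.75%); after 1 dose 11 were higher (10.9%) and 0 lower (5.9%). For Slc25a20 the change was 0.68 after 4 doses and 0.57 after 1 dose, for Slc25a16 0.43 and 0.46, and for Slc25a4 0.37 and 0.44. Slc25a22 was higher than in Mstn-null mice after 1 dose (0.54) and was not called after 4. Slc25a3 (0.35), Slc25a5 (0.25) and Slc25a23 (0.30) were likewise called after 1 dose and not after 4, while Slc25a40 (0.47), Slc25a46 (0.41), Slc25a38 (0.36), Slc25a30 (0.31) and Slc25a12 (0.26) were called after 4 and not after 1. Such a split is no test between the doses: set against each other directly, they gave a call for Slc25a30 only. Slc25a46 changed by 0.39 after 1 dose without a call. Slc25a5 lost its call without any 1 of 22 arrays, among them control and 4 doses arrays, and Slc25a46 and Slc25a12 each lost theirs without any 1 of 11. With the array range as a covariate, the calls fell to 1 (Slc25a30; background 1.02%) after 4 doses and 0 (0.456%) after 1.

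Slc25a1, the citrate carrier that supplies carbon for fatty acid synthesis in the cytosol, was the gene lower after 4 doses than in Mstn-null mice, by -0.77 ± 0.27 (SE; limma adjusted p = 0.0434). It measured 5.96, 7.30 and 5.71 in Mstn-null mice and 5.87, 5.96 and 5.76 after 4 doses in experiment 1. In experiment 2 Mstn-null mice ranged from 7.24 through a median of 8.47 to 9.20, and mice given 4 doses measured 7.52, 7.85, 7.26, 7.48 and 7.45. The groups overlapped in both experiments, and the call was lost without any 1 of 12 arrays. Markers of fat cells went with it in some single mice and not in others. The Mstn-null mouse at 7.30 and the 1 dose mouse at 8.47 in experiment 1 had the highest mean of 6 adipocyte markers in their groups (6.52 and 7.51), and in experiment 2 the Mstn-null mouse at 9.20 had a mean of 8.28 and the mouse at 7.24 a mean of 6.65. Other mice of experiment 2 went the other way. Mstn-null replicate 5 had a marker mean of 8.20 with Slc25a1 at 8.06, and Mstn-null replicate 2 a mean of 7.10 with Slc25a1 at 8.40. After 4 doses replicate 5 had the highest marker mean of its group (7.79), with Slc25a1 at 7.45. The part of fat tissue in the Slc25a1 result was not tested.

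Of the 46 carriers, 0 passed the limma test of a difference between the experiments after adjustment in any class. The backgrounds were 1.68% of all genes for Mstn-null mice, 0% for 1 dose and 0.00502% for 4 doses, and before adjustment 12, 4 and 6 members had a p under 0.05. Simulated data held 100 changed genes of each size among 19938, with noise drawn independently for each gene, so their rates hold for that setting. There this test called 22%, 9% and 20% of true log2 differences of 0.5 in these classes. Of differences of 1 it called 83%, 70% and 77%. The 0 of 46 therefore does not show that the changes were equal in the experiments. Slc25a25, an ATP-Mg/phosphate carrier that responds to calcium, had the widest gap in measured change. After 1 dose it measured 6.26, 8.27 and 8.81 in experiment 1 against 8.37, 8.39 and 8.61 in controls, and 9.54, 10.14, 9.66, 10.15 and 9.65 in experiment 2 against 8.39, 9.33, 9.17, 8.69 and 9.38. The changes were -0.67 and 0.84, the second called in experiment 2 alone (limma adjusted p = 0.0496), and their difference was 1.51 (adjusted p = 0.947). The first rests on the mouse at 6.26: without it the change in experiment 1 was 0.09 and the difference 0.75. After 4 doses the values 7.82, 7.60 and 7.71 lay below the controls in experiment 1, whereas 8.92, 9.94, 9.46, 9.43 and 9.54 overlapped them in experiment 2. Those changes were -0.74 and 0.47, with a difference of 1.21 (adjusted p = 0.506). Slc25a24, its relative, was higher after 4 doses in experiment 2 alone (0.48, adjusted p = 0.00715), where 7.01, 6.92, 6.58, 6.80 and 7.11 lay above the controls at 6.33, 6.47, 6.25, 6.54 and 6.42. In experiment 1 its change was -0.04, and over both it was 0.29 (adjusted p = 0.135).

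**Figure D5:**
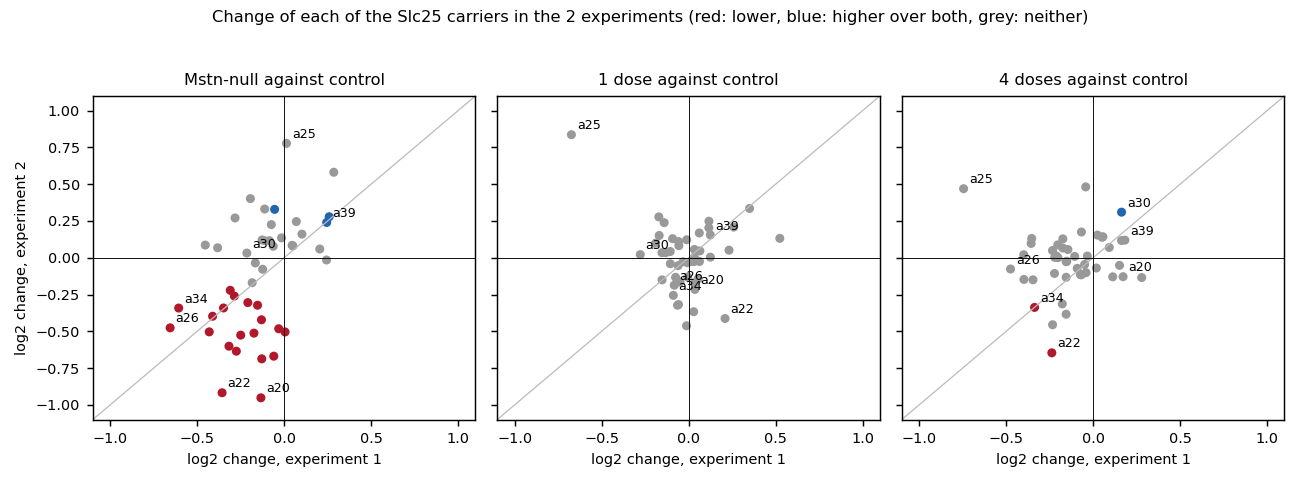
Log2 change of each carrier in experiment 1 (x axis) against experiment 2 (y axis) for Mstn-null mice, 1 dose and 4 doses against control; the diagonal marks equal changes, and red and blue mark genes called lower and higher over both experiments. Slc25a22 and Slc25a20 lie further below 0 in experiment 2 (-0.92 and -0.95) than in experiment 1 (-0.36 and -0.13), and Slc25a25 lies at the upper left after both doses (-0.67 and 0.84, -0.74 and 0.47), the -0.67 resting on 1 mouse.

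Fitted alone, the experiments gave unequal counts. In experiment 1 the carriers called against control were 1 in Mstn-null mice (Slc25a26; background 2.39%), 0 after 1 dose (0.0251%) and 0 after 4 doses (0.266%). In experiment 2 they were 26 in Mstn-null mice (7 higher and 19 lower; background 43.9%), 2 after 1 dose (Slc25a25 higher and Slc25a27 lower; 1.23%) and 3 after 4 doses (Slc25a24 and Slc25a30 higher and Slc25a22 lower; 2.62%). For 4 doses against 1 dose 0 were called in either (0.241% and 0.211%). Against Mstn-null mice, 0 and 15 were called after 4 doses (0.015% and 28.7%) and 3 and 11 after 1 dose (2.01% and 13.1%). Experiment 1 had fewer arrays. The shares of all genes for these fits count both directions together, so they do not weigh the split into higher and lower.

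Counts of groups that did not overlap use no fit. In Mstn-null mice 11 carriers lay wholly below control and 1 above in experiment 1, where 13.9% and 11.6% of all genes did, and 10 and 0 in experiment 2, where 5.52% and 8.24% did. After 4 doses 10 lay below and 0 above in experiment 1 (7.8% and 5.78%), and 1 below and 2 above in experiment 2 (2.8% and 4.15%). After 1 dose 1 lay below and 1 above in experiment 1 (4.47% and 4.71%), and 1 below and 4 above in experiment 2 (2.94% and 4.17%). Between the dose groups, 9 carriers lay lower and 3 higher after 4 doses than after 1 in experiment 1 (7.06% and 7.51%), and 1 lower and 1 higher in experiment 2 (0.908% and 1.19%). Slc25a30 was among those higher in both. Against the Mstn-null group, 3 carriers lay higher and 1 lower after 4 doses in experiment 1, and 0 either way in experiment 2. After 1 dose 10 lay higher and 2 lower in experiment 1, and 1 higher and 0 lower in experiment 2. For these comparisons with Mstn-null mice the shares of all genes are not given.

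The proteins that work beside the carriers were read from lists of other genes. Of all genes, 16.4% were called lower and 25.4% higher in Mstn-null mice. After 1 dose 1.11% were called, and after 4 doses 1.23% were lower and 1.91% higher. These shares also stand beside the shuttle and marker genes above. Of 14 measured genes that import carrier precursors into mitochondria, 12 were lower in Mstn-null mice and 0 higher, with a median change of -0.51. Examples are Tomm7 (-0.95), of the outer membrane translocase, and Timm8b (-0.86), Timm8a1 (-0.70) and Timm9 (-0.63), small chaperones of the intermembrane space. After either dose 0 of the 14 were called, which is near the low shares of all genes. Of 12 other transporters of the mitochondrial membranes, 6 were lower in Mstn-null mice, among them Mpc1 (-0.55), a subunit of the pyruvate carrier, and Vdac1 (-0.42) and Vdac3 (-0.40), pores of the outer membrane. Letm1, an inner membrane cation exchanger, was lower in Mstn-null mice (-0.42) and after 4 doses (-0.34, limma adjusted p = 0.00526). Among carrier relatives named outside the Slc25a symbols, 2 of 4 were lower in Mstn-null mice, Ucp3 (-1.16), the uncoupling protein of muscle, and Mtch2 (-0.26), an outer membrane protein, and 0 of 4 after either dose. The lowest change among the 4 was -0.73 after 1 dose and -0.57 after 4 doses, without a call. These lists were read without the array range as a covariate.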

How the data were processed

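Log2 intensities of whole-transcript arrays were deposited by the authors, who made them with RMA, per the submitters' processing notes. The same notes list limma (version 3.4.4) and R (version 2.11.1) and give no role for either. Whether the 2 experiments were normalized together and which genome build the probes follow are not given in the sources used here.

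The deposited table held 35556 rows; 21789 were annotated to 1 gene symbol, 1621 to several and 12146 to none. The row with the highest mean stood for a gene, which gave 19938 genes, with no filter on dim rows. limma 3.58.1 (lmFit and eBayes, R 4.3.3) fitted class and experiment to all 35 arrays. All classes shared a single spread for each gene. Benjamini-Hochberg adjusted p under 0.05 was called, and a fit of 8 group means tested the difference between experiments. The fit was tested on simulated data. The labels call the samples biological replicates, and the number of arrays limits the precision; signal over background was not analysed here. Arrays of a group correlated at 0.952 to 0.993 and differed in at least 99.4% of rows.

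Members, role groups and gene lists were chosen with earlier results of these data known. All 46 members matched RefSeq by gene number. Values in full were given for up to 8 called carriers with the largest change and the same sign in both experiments in each comparison with control, for up to 4 in each other comparison, and for the member of each role with the smallest p; up to 4 genes of each other list, by smallest p, were named; Slc25a4, Slc25a39, Slc25a24 and Slc25a25 were added after their values were seen. Alternatives were quantile normalization within each experiment, median centring, the array range as a covariate, array weights, each experiment alone, a replicate block, brighter genes only, the mean of all rows of a gene, and leaving out each array in turn. Added after seeing the data were a range over the tested genes and a fit without 3 arrays.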

Additional observations from a re-analysis of the deposited data

Results flagged for a closer look

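Of 184 groups of 4 to 10 arrays, taken as each carrier in each class of experiment 2, 13 had an array that stood apart from the rest of its group by Dixon's critical value; chance marks about 1 group in 20. No explanation was tested for any of them. Slc25a39 was marked in every class: 9.11 in control replicate 5, 9.90 in Mstn-null replicate 1, 9.19 in 1 dose replicate 5 and 9.42 in 4 doses replicate 3. Slc25a20 stood apart at 10.30 in control replicate 4 and at 9.16 in 1 dose replicate 5, and Slc25a42 at 7.84 in Mstn-null replicate 2 and 7.04 in 1 dose replicate 1. The other marked values were Slc25a15 at 7.72 in 1 dose replicate 3, Slc25a33 at 7.16 in Mstn-null replicate 1, Slc25a36 at 7.95 in Mstn-null replicate 2, Slc25a47 at 6.70 in control replicate 1 and Slc25a48 at 6.18 in Mstn-null replicate 7.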

How the results depend on the processing

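Counts of carriers called were, without an alternative, 23 in Mstn-null against control, 0 and 3 after 1 dose and 4 doses against control, 1 between 4 doses and 1 dose, and 13 and 11 when 4 doses and 1 dose were set against Mstn-null. The cause of the shifts below was not tested. With the array range as a covariate they became 2 in Mstn-null mice and, against Mstn-null, 1 after 4 doses and 0 after 1 dose, and the change in Mstn-null mice differed between experiments for 4 carriers (Slc25a20, Slc25a24, Slc25a37 and Slc25a38). With the range over the tested genes, added after seeing the data, these were 2, 1, 1 and 2. Array weights gave 3 carriers after 1 dose (Slc25a27, Slc25a36 and Slc25a45), 6 after 4 doses, 2 for 4 doses against 1 dose, and 1 difference between experiments (Slc25a24). Experiment 1 alone, with fewer arrays, gave 1 in Mstn-null mice, 0 after 4 doses, 0 between 4 doses and 1 dose, and, against Mstn-null, 0 and 3 after 4 doses and 1 dose; experiment 2 alone gave 2 after 1 dose (Slc25a25 and Slc25a27) and 0 for 4 doses against 1 dose. Without 1 dose replicate 4 and 4 doses replicates 1 and 3 of experiment 2, the dosed arrays with low slow fibre markers, 1 carrier was called after 4 doses (Slc25a22), 0 between 4 doses and 1 dose, and 8 between 4 doses and Mstn-null.

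With the replicate number as a block, 4 carriers were called for 4 doses against Mstn-null and 1 difference between experiments (Slc25a37); the other counts were 18 in Mstn-null mice, 0 after 1 dose, 2 after 4 doses, 1 between 4 doses and 1 dose and 8 between 1 dose and Mstn-null. Arrays of the same number correlated at -0.60 to 0.41 in their deviations, and 12 of 32 correlated best with an array of their own number. The number that chance would give was not computed, so whether the replicate number marks a pairing was not tested. Leaving out each array in turn gave 21 to 25 carriers in Mstn-null mice, 0 to 0 after 1 dose, 1 to 3 after 4 doses, 0 to 1 between 4 doses and 1 dose, and, against Mstn-null, 8 to 19 after 4 doses and 9 to 14 after 1 dose. The count after 4 doses fell to 1 without 4 doses replicate 1 of experiment 1, control replicates 1, 3, 4 and 5, or 4 doses replicates 3 and 4 of experiment 2. For 4 doses against Mstn-null it was 8 without 4 doses replicate 5 of experiment 2 and 19 without 4 doses replicate 3 of experiment 1. A difference between experiments in Mstn-null mice was called for 0 to 1 carriers, with Slc25a37 without Mstn-null replicate 2 of experiment 1 and Slc25a20 without Mstn-null replicate 5 of experiment 2. Directions turned for Slc25a11 in Mstn-null mice with the array range (0.0247), for Slc25a38 (0.0054) and Slc25a41 (-0.0547) in experiment 1 alone, and for Slc25a32 (-0.0473) and Slc25a46 (-0.14) in 4 doses against Mstn-null in experiment 1 alone. Quantile normalization, median centring, brighter genes only and the mean of all rows moved no count over both directions by over 1.5 times. The genes behind a count changed more. With quantile normalization 17 of the 23 Mstn-null calls stayed and 6 were lost, while Slc25a2, Slc25a14, Slc25a25 and Slc25a28 were newly called. The 3 carriers higher then included Slc25a25 and Slc25a28. With centring 20 of the 23 stayed, and Slc25a2 and Slc25a14 were new. By direction, carriers higher after 4 doses went from 1 to 0 with quantile normalization and with centring, and carriers higher in Mstn-null mice from 3 to 0 with centring and to 1 with brighter genes only. The brighter-genes fit left out Slc25a48 and Slc25a41 as dim, and the 21 Mstn-null calls it could test all stayed. Carriers lower after 4 doses than in Mstn-null mice went from 1 to 2 with quantile normalization and to 0 with centring.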
